A study of Mus musculus with 2 samples.

Results

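The 511 contigs described here are among the most densely covered transcribed stretches of a mouse intestine RNA-seq series. A contig is a continuous run of sequenced RNA on 1 strand of the genome, and the deposited list gives each contig a level, which is its read coverage per nucleotide scaled to depth. The 511 were chosen by their measured level, at least 100, and by their length, at least 200 and under 5000 nt, from a list of 647881 contigs, with the Y chromosome left out. Level and length are therefore given as a description and with no test. A level of 100 stood for a mean depth of 1885.7 reads over each nucleotide.

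The study sequenced polyA-selected RNA longer than 200 nt from adult mice of the inbred strain C57BL/6J, with strand-specific paired reads of 76 nt. The samples form 1 group, tissue labelled large intestine from mice aged 8 weeks, with no treatment or mutation named. Male and female littermates were pooled for each of the 2 biological replicates, and both replicates carry the same donor record, so the spread between them may be partly technical. Depth was 58233142.1 expected counts in replicate 2 and 50189619.1 in replicate 1. The contig list and a list of splice junctions cover the whole series at once, so no contig has a level per replicate.

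The label did not match all of the marker genes. Of the 4 genes listed as markers of colon epithelium, Car1, Aqp8, Scnn1b and Scnn1g, the highest value in either library was 0.27 TPM (a share of transcripts, scaled to length and depth). The small intestine markers were present in both libraries at unequal levels: Fabp6, the ileal bile acid binding protein, had 5278.6 TPM in replicate 2 against 477.4 TPM in replicate 1. Lct, the lactase of the proximal small intestine, had 9.94 TPM in replicate 2 against 151.7 TPM in replicate 1, and Sis, sucrase-isomaltase, had 79.72 TPM in replicate 2 against 281.1 TPM in replicate 1. The Paneth cell lysozyme Lyz1 had 6826.1 TPM in replicate 2 against 4597.1 TPM in replicate 1. The libraries are therefore called by their labels below, with the marker values as the measured limit, and which part of the gut gave each library was not tested.

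The intestinal lining is a sheet of absorptive cells, which digest and take up food, and of secretory cells. Goblet cells secrete mucus, and Paneth cells, at the base of small intestinal crypts, secrete antimicrobial peptides. Plasma cells under the lining make immunoglobulin A, and smooth muscle surrounds the whole tube. After splicing, the RNA of a gene is read from its exons, so a highly expressed gene appears as contigs that end in, or are bridged by, splice junctions.

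Gene names were given to contigs by the pattern of their splice junctions. The distances between neighbouring splice sites were compared with all annotated mouse genes, and a contig was tied to a gene when at least 3 consecutive distances matched that gene alone. The 3 distances were an intron, an exon and a further intron. A gene without an annotated transcript of at least 3 exons could therefore not be tied, whatever its level. The sequences across a splice site show what such a match stands for, and they are printed for genes whose contigs lead the list or whose sequences resemble each other. Each has 15 bases of the upstream exon in lower case and 15 bases of the downstream exon in capitals, as the GENCODE M21 transcripts give them, at the most-read coding junction of the contig.
Reg3b: tggtttgatgcagaaCTGGCCTGCCAAAAG
Reg3g: tggtatgatgcagatATGGCCTGCCAAAAG
Crip1: gggggtcatgctgagCATGAAGGCAAGCCC
Apoa1: tggtcttcctgacagGGAGCCAGGCTTGGC
Spink4: ttggcatggacagggAACTGATGGTGTCAG
The Reg3b junction spans an intron of 170 nt and was crossed by 370647 reads, and the Reg3g junction spans an intron of 185 nt and was crossed by 226447 reads. Reg3b and Reg3g share 27 of these 30 bases. No source used here states how the authors counted reads that fit more than 1 gene, so the values of this pair, of the actin and H2 genes and of ribosomal protein genes with processed copies are uncertain to that extent.

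Levels of the 511 contigs ran from 100 to 16300, with a median of 164 and an upper quartile of 259.5. Lengths ran from 205 to 4977 nt, with a median of 733 nt. Together the contigs covered 657260 nt, which is 0.2979% of all contig sequence, and held 21.04% of all summed coverage. Without the length limits 669 contigs reached a level of 100, of which 125 were shorter than 200 nt, 33 were 5000 nt or longer and 0 lay on the Y chromosome. At the lower edge of the rule, 5 contigs had a level of exactly 100 and were tied to Grina, H2-DMb1, Ms4a8a, Clca1 and Rpsa, and the 5 highest contigs outside it had levels of 99.6 to 99.8. The longest members were tied to Calr with 4977 nt, Cs with 4973 nt and H2-D1 with 4919 nt, and the shortest contig just past the upper limit had 5016 nt. The shortest were tied to Col3a1 with 205 nt and Prpf19 with 206 nt, followed by contigs of 207 nt, and the longest contigs just under the limit had 199 nt.

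The contigs fell into 433 loci when members on the same strand within 10 kb were joined. A single contig made up 374 of the loci, and 6 loci held 4 or more. Each of those 6 matched 1 gene, among them Itln1, Rack1, Acta2, Clca1 and Actg2 with 4 contigs each. The mouse Itln1 gene encodes a lectin of goblet and Paneth cells, and its contigs at this locus ran from level 118 to 581. Members lay on 21 chromosomes, with 44 on chromosome 6 and 44 on chromosome 7, and 2 on the mitochondrial chromosome.

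The plus strand held 243 of the 511 contigs, or 47.55%, beside 51% of all contigs. The deposited list also scores the reproducibility of each contig on a scale that no file or label used here defines. All 511 contigs had a value of 0, the lowest of that scale, beside 26.7% of all contigs. The 898 contigs of the same lengths with levels of 50 to under 100 also all had 0, so the value did not separate the highest contigs from the next ones down.

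Splice junctions ended in most of the contigs. A junction with at least 10 reads ended in, or within 5 nt of, 422 of the 511 contigs (82.58%), beside 17.4% of all contigs and 91.2% of the 898 contigs in the next level range. A complete intron lay inside 172 contigs (33.66%), beside 1.82% of all contigs and 28.51% of the 898 contigs in the next level range. These junctions carried 9388027 reads, which is 22.15% of the reads of all junctions with at least 10 reads, in 2.25% of those junctions. Long contigs have more room for junctions, and the members are longer than the other contigs, with a median length of 733 nt against 192 nt.

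Junction reads made up a smaller part of the coverage at the higher levels. Junction reads were counted per 1000 read lengths of coverage, and contigs were called unspliced when they had under 10 and were not tied to a gene, a limit chosen after the values were seen. By this division 330 contigs were tied to a gene, 59 were spliced but not tied, and 122 were unspliced. Of 23 contigs with a level of 1000 or more, 13 were unspliced (56.52%). The unspliced share was 50% of 32 contigs with levels of 500 to under 1000, 30.66% of 137 contigs with levels of 200 to under 500, and 15.99% of 319 contigs with levels of 100 to under 200. Level enters this measure, since coverage is its divisor, so its course along the level scale is a description only, and the plain share of contigs without any junction of at least 10 reads is given too. From the lowest range to the highest it was 12.85%, 23.36%, 37.5% and 17.39%, so this share did not keep climbing in the top range, where contigs without such a junction numbered 4 of 23 and the other 19 had one. Below the limit, 111 of the 511 had under 1 junction read per 1000 read lengths and 14 had 1 to under 10. Above it the range was filled, with 93 contigs at 10 to under 100, tied contigs among them. The lowest value of a spliced contig without a tie was 13.72.

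**Figure D1:**
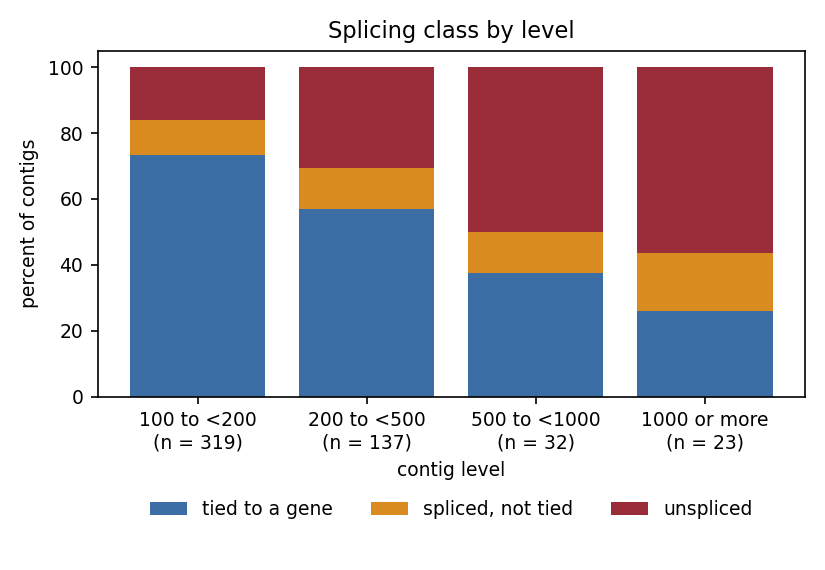
Percent of contigs in each splicing class (vertical axis) for 4 ranges of contig level (horizontal axis, low to high, with the number of contigs in each). The unspliced share is 15.99% in the lowest range and 56.52% in the highest, and the share tied to a gene takes the opposite course.

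Their median length was 513 nt and their median level 235.5, beside 1075 nt and 149 for contigs tied to a gene. The nearest contig on the same strand lay at a median distance of 4878 nt from an unspliced contig and of 44 nt from a tied one. A gap of more than 10 kb surrounded 40.16% of the unspliced contigs and 0.303% of the tied ones. No junction with at least 10 reads ended in 89 of the 122. Since a tie needs junctions, the contrast in splicing between these classes follows from how they were made, and level and length enter it through the coverage. Distance is not independent of it either, because a tied contig has further exons of its gene on the same strand.

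The highest contig of all, chr16:11143991-11144421 on the plus strand of build mm9, had a level of 16300. Only 1654 junction reads ended in it, or 0.9511 per 1000 read lengths. The next, chr3:5860319-5860831 on the plus strand, had a level of 14200 and 133 junction reads, and its nearest neighbour on that strand was 109117 nt away. A contig of 267 nt at chr18:68851713-68851979 followed with a level of 7290 and 21 junction reads. All 3 had higher levels than any contig tied to a gene, of which the highest had a level of 4640.

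Further down the first 20, unspliced contigs were found on 9 more occasions. The contig chr11:108872951-108873472 on the minus strand had a level of 4520, chr5:147072518-147072942 on the plus strand 3170, chr15:86025176-86025757 on the plus strand 3130 and chr13:44964935-44965455 on the minus strand 2430. Levels of 1950, 1910, 1630, 1590 and 1530 were found at chr16:17222296-17222611, chr17:23013281-23013510, chr9:78023107-78023440, chr7:137977875-137978164 and chr16:57391223-57391829. None of the 12 unspliced contigs among the first 20 has a gene name here, because no annotation of build mm9 was used. Both contigs on the mitochondrial chromosome were in the same class: positions 10742 to 11605 had a level of 917 and positions 11716 to 16299 a level of 612, with 14 and 57 junction reads. Mitochondrial genes have no introns, so this class is where they would be placed.

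**Figure D2:**
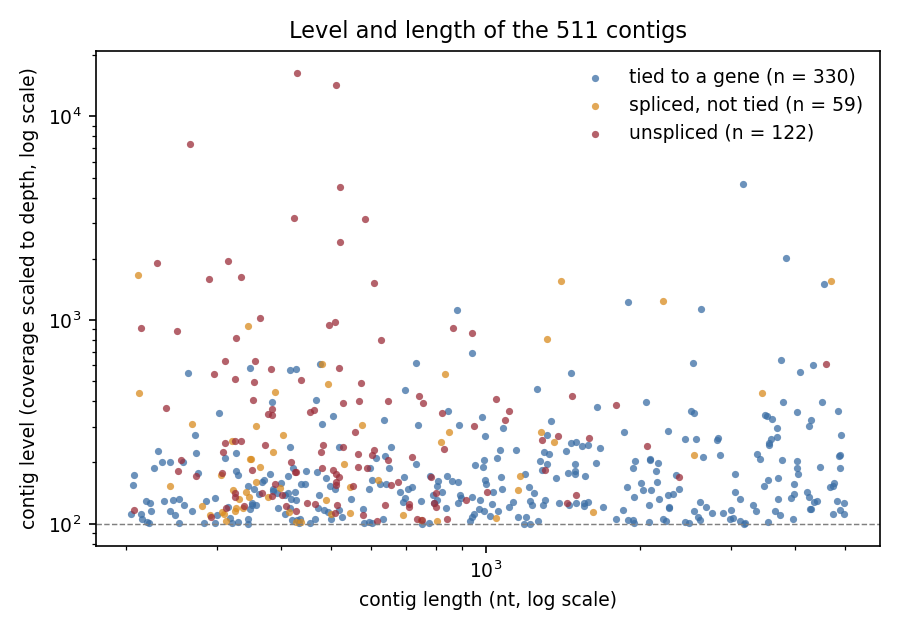
Level (vertical axis, log scale) against length in nt (horizontal axis, log scale) of each of the 511 contigs, coloured by splicing class; the dashed line marks a level of 100. The contigs with the highest levels, 16300, 14200 and 7290, are short and unspliced, while the longest contigs are mostly tied to a gene.

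Contigs on the opposite strand were weak where they occurred. At 72 of the 511 contigs (14.09%) a contig on the other strand overlapped by at least 1 nt, beside 9.47% of all contigs. The share was 14.03% of the 898 contigs of the same lengths in the next level range, so it was not particular to the members. The level on the other strand had a median of 0.1434% of the member's level, with a range of 0.007157% to 41.13%, and reached 1% or more at 20 members. The highest ratio, 41.13%, was at the unspliced contig chr16:35981670-35981908, with a level of 372 and an opposite level of 153. An unspliced contig at chr1:45914014-45914689 followed, with a level of 161 and an opposite level of 36.2. Among tied contigs the highest ratios belonged to Myo1a, a motor protein of the brush border, with 17.41%, Dazap2 with 16.41% and Capns1 with 15.65%. Strand was kept in these libraries, so these ratios compare RNA read from opposite strands; the choice of members by a high level makes a low ratio likely.

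The 330 tied contigs belonged to 244 genes. A tie was found for 64.58% of the members, beside 15.2% of all contigs. The chromosome and strand were not used in the match, and all 330 contigs lay on the chromosome and strand of the gene they were tied to. A single contig supported 184 genes, 45 genes had 2, and 15 had 3 to 5. In replicate 2 the 244 genes held 26.88% of all TPM, and in replicate 1 they held 23.73%, with a sum of 253052.4 TPM ± 22315.6 (SD, n = 2). Their mean TPM over the libraries ran from 23.55 to 29595.9 with a median of 434.7, and they included 39 of the first 100 genes by mean TPM and 175 of the first 500.

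An antimicrobial lectin of the Reg3 family, Reg3b, gave the highest tied contig, and its relative Reg3g gave the third, after Actb. Reg3b, a C-type lectin that binds bacteria, had a contig of level 4640 at chr6:78320591-78323753, and 43967.2 TPM in replicate 2 against 15224.5 TPM in replicate 1. Reg3g, which kills Gram-positive bacteria, had a contig of level 1500 at chr6:78414560-78419112, and 20356.8 TPM in replicate 2 against 5754.2 TPM in replicate 1. Both were higher in replicate 2, by 1.53 and 1.82 on the log2(TPM + 1) scale. In tissue RNA, more cells of a type and more RNA per cell cannot be told apart. Of 4 tied genes of host defence these 2 were at least 2-fold higher in replicate 2, beside 1.18% of all genes tested. The tilt was not limited to them, since the 28 genes of this group with a mean TPM of at least 1 had a median log2 ratio of 1.11. Zg16, a lectin of mucus that binds Gram-positive bacteria, had 7576.1 TPM in replicate 2 against 5188.6 TPM in replicate 1 with a contig of level 605, and Itln1 had 2958.2 TPM in replicate 2 against 2116.9 TPM in replicate 1.

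The promoters of both Reg3 genes are shown because both had tied contigs of level 1500 or more and were higher in replicate 2. RefSeq sequences of build GRCm38.p6 run from 250 bases before to 50 bases after the gene start, with the motif TATAAA in capitals. They lie at chr6:78370635-78370934 on the plus strand for Reg3b and chr6:78468825-78469124 on the minus strand for Reg3g.
Reg3b promoter: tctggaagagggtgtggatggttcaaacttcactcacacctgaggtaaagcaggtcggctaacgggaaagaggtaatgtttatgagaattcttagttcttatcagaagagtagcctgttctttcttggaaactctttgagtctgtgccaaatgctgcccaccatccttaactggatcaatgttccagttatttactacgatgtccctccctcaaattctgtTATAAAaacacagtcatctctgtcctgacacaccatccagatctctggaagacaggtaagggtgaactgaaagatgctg
Reg3g promoter: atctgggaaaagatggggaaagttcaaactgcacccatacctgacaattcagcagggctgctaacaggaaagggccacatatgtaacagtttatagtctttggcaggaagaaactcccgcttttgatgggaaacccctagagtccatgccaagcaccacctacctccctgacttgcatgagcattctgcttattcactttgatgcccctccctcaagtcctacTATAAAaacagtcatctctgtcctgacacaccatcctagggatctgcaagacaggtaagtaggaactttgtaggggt
TATAAA begins 29 bases before the start in Reg3b and 27 bases before it in Reg3g. Searched as TATAAA and as TTTATA for the other strand, the motif was in the promoters of 31 of 190 tied genes with a sequence (16.32%), beside 15.67% of all 27025 genes of the promoter table and 9.086% of those at a mean TPM of 1 or more. On the gene's own strand and 40 to 20 bases before the start it was in 8 of the 190 (4.211%), beside 2.405% of all genes and 1.877% of those at a mean TPM of 1 or more.

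Goblet cell and mucus genes gave 5 tied genes, Spink4, Muc13, Clca1, Fcgbp and Agr2, with 14 contigs. They are 38.46% of the 13 genes of this group with a mean TPM of at least 1, beside 1.254% of the 12444 such genes outside all groups. Members were chosen by a high level, so these shares are a description only. The core goblet markers Muc2, the main mucin, and Tff3, a trefoil peptide, had no tied contig among the 511, at 2000.0 TPM in replicate 2 against 1790.7 TPM in replicate 1 for Muc2 and 14265.1 TPM in replicate 2 against 9057.2 TPM in replicate 1 for Tff3. Spink4, a small secreted protein of goblet cells, had 13678.1 TPM in replicate 2 against 12733.2 TPM in replicate 1 with a contig of level 1120. The mucus protein Fcgbp had 5 contigs with levels of 127 to 282, at 2842.7 TPM in replicate 2 against 2242.0 TPM in replicate 1. None of the 5 genes was 2-fold apart between the libraries, beside 5.64% of all genes tested, a share that 5 genes cannot be told from. Their log2 ratios ran from -0.23 for Muc13 to 0.58 for Agr2.

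The group of barrier and cytoskeleton genes, which includes smooth muscle genes, gave 18 tied genes with 25 contigs. Lgals2, Lgals3, Lgals9, Epcam and Cdh17 are also part of it. Actb, the non-muscle actin, had a contig of level 2020 at chr5:143664730-143668559, and 6666.4 TPM in replicate 2 against 6817.6 TPM in replicate 1. The smooth muscle actins Acta2 and Actg2 had 4 contigs each, with levels of 239 to 321 and 103 to 349. Acta2 had 1413.2 TPM in replicate 2 against 1118.5 TPM in replicate 1, and Actg2 had 1061.0 TPM in replicate 2 against 979.2 TPM in replicate 1. Krt20, a keratin of differentiated lining cells, was the 1 gene of this group past 2-fold on the TPM scale, though not with TMM scaling (log2 ratio -1.06 and -0.89), with 335.4 TPM in replicate 2 against 699.6 TPM in replicate 1. That is 1 of 18 tied genes, beside 5.64% of all genes tested. Crip1, a LIM-domain protein expressed in the intestine, stood outside the groups with a contig of level 1230, 10145.3 TPM in replicate 2 against 13118.7 TPM in replicate 1.

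Of the tied genes for energy metabolism and translation none was 2-fold apart, beside 5.64% of all genes tested. So few genes cannot show a difference from that share. The respiratory chain and ATP synthase gave 15 tied genes, led by Cox6a1 with a contig of level 690 and 2542.6 TPM in replicate 2 against 2668.1 TPM in replicate 1. Ribosomal proteins gave 13 tied genes, led by Rplp1 with a contig of level 548 and 5521.7 TPM in replicate 2 against 5726.2 TPM in replicate 1. These 13 are 8.442% of the 154 ribosomal protein entries with a mean TPM of at least 1, a count that includes processed copies. Outside all groups the share was 1.254% of 12444 genes. Translation factors gave 3, of which Eef1a1, which delivers aminoacyl-tRNA to the ribosome, had a contig of level 638 and 3246.3 TPM in replicate 2 against 2949.5 TPM in replicate 1. Protein folding genes gave 6, among them Hspa8 with 2386.7 TPM in replicate 2 against 1996.2 TPM in replicate 1. The mitochondrial genome gave no tied gene, and it could give none, since a tie needs introns.

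Antigen presentation gave 7 tied genes, with Cd74, the invariant chain of MHC class II, at level 575 and 4061.5 TPM in replicate 2 against 3914.5 TPM in replicate 1. The class I gene H2-K1 and the class II gene H2-Aa had contigs of level 356 and 351. For the antibody group, Jchain, which joins polymeric immunoglobulin A, had 778.0 TPM in replicate 2 against 1479.1 TPM in replicate 1, and Pigr, the receptor that carries it across the lining, had 613.5 TPM in replicate 2 against 1094.0 TPM in replicate 1. Neither reached 2-fold, with log2 ratios of -0.93 and -0.83.

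Genes of the group named absorption and lipid handling differed in both directions between the libraries. Of 15 tied genes in this group 1 was at least 2-fold higher in replicate 2 and 5 were at least 2-fold higher in replicate 1, beside 1.18% and 4.46% of all genes tested. With TMM and with FPKM the 5 became 3, since Apoa1 and Guca2b fell under 2-fold. The group was made by gene symbol, so it holds Slc25a1, Slc25a3, Slc25a4, Slc25a5, Guca2a and Guca2b and leaves out Enpp7, Rbp2, Alpi, Mgam and Mogat2. These counts therefore describe the symbols listed, not all genes of absorption. Of 156 tied genes outside all groups, 0 were at least 2-fold higher in replicate 2 and 7 in replicate 1, beside 1.18% and 4.46% of all genes tested. Fabp6, with 2 contigs up to level 204, had 5278.6 TPM in replicate 2 against 477.4 TPM in replicate 1, a log2 ratio of 3.46. Apoa4, an apolipoprotein of fat absorption, had 91.11 TPM in replicate 2 against 1094.3 TPM in replicate 1, a log2 ratio of -3.57. Apoa1, the main protein of high-density lipoprotein, had 2729.0 TPM in replicate 2 against 6101.4 TPM in replicate 1 with a contig of level 1140. Anpep, a brush border peptidase, had 1852.5 TPM in replicate 2 against 2790.4 TPM in replicate 1 and did not reach 2-fold.

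Over all tied genes 16 of 244 (6.557%) were at least 2-fold apart, beside 5.64% of the 13512 genes whose mean TPM reached 1. The share is near the background, and with 1 library on each side no ratio has a replicate check. Higher in replicate 2 were 3 genes, beside 1.18% of all genes tested, and all 3 are named above. Higher in replicate 1 were 13, beside 4.46%. With FPKM or with counts scaled by TMM, 4 genes were 2-fold higher in replicate 2 and 8 in replicate 1. On the TPM scale, the largest differences among the 13 genes higher in replicate 1 were those of Enpp7, an intestinal sphingomyelinase, at -3.69, Apoa4 at -3.57, Rbp2, the retinol carrier of enterocytes, at -2.68, Alpi, an intestinal alkaline phosphatase, at -1.89, and Ifi27l2b at -1.75. Enpp7 had 103.5 TPM in replicate 2 against 1349.3 TPM in replicate 1, and Rbp2 had 56.52 TPM in replicate 2 against 366.6 TPM in replicate 1. The median log2 ratio was -0.08 over the tied genes and -0.14 over all genes tested, and TMM scaling turned these to 0.08 and 0.01. Of the 4 small intestine markers, Lct and Sis, which have no contig among the 511, and Apoa4 were higher in replicate 1 and Fabp6 was higher in replicate 2, and their part in these ratios was not tested.

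**Figure D3:**
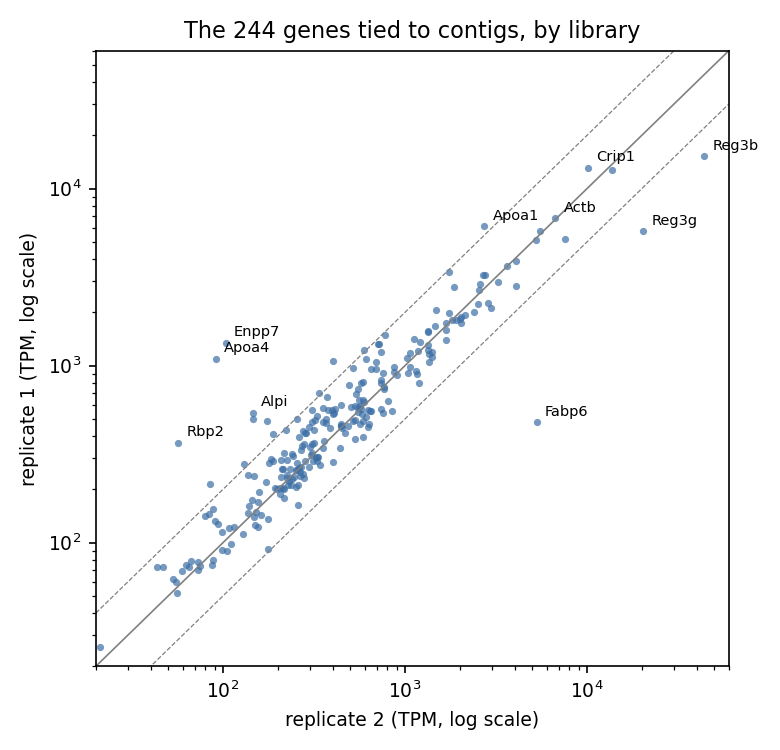
TPM of the 244 tied genes in replicate 2 (horizontal axis, log scale) and in replicate 1 (vertical axis, log scale), with a solid line at equal levels and dashed lines at 2-fold. Most points lie between the dashed lines, Fabp6, Reg3b and Reg3g lie below them, and Enpp7, Apoa4 and Rbp2 lie above them.

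The junction list splits its reads into a first and a second count field. No source used here links a field to a replicate, and neither field was given to one. Over all junctions the second field held 22732327 reads and the first 20305017. Among 412 contigs with at least 20 junction reads, 71 (17.23%) had fields at least 2-fold apart, beside 18.1% of the 98232 contigs in the whole list with that many. The second field was the higher in 41 of the 412 (9.951%), beside 4.62% of the 98232, and the first was the higher in 30 of the 412 (7.282%), beside 13.5%. Among 815 such contigs of the same lengths in the next level range, the shares were 2.822% and 7.117%. The first-field share of the members was therefore near that of the next range. A single stretch of chromosome 8, described below, held 11 of the 41 contigs. Fabp6 contigs had 49935 reads in the second field and 3254 in the first, and the Apoa4 contig had 691 in the second field and 8063 in the first. Over the 244 tied genes the log2 ratio of the fields, second over first, and the log2 TPM ratio, replicate 2 over replicate 1, had a Pearson correlation of 0.93 and a Spearman correlation of 0.84. The points are genes, not replicates, and both measures come from the same sequenced libraries.

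**Figure D4:**
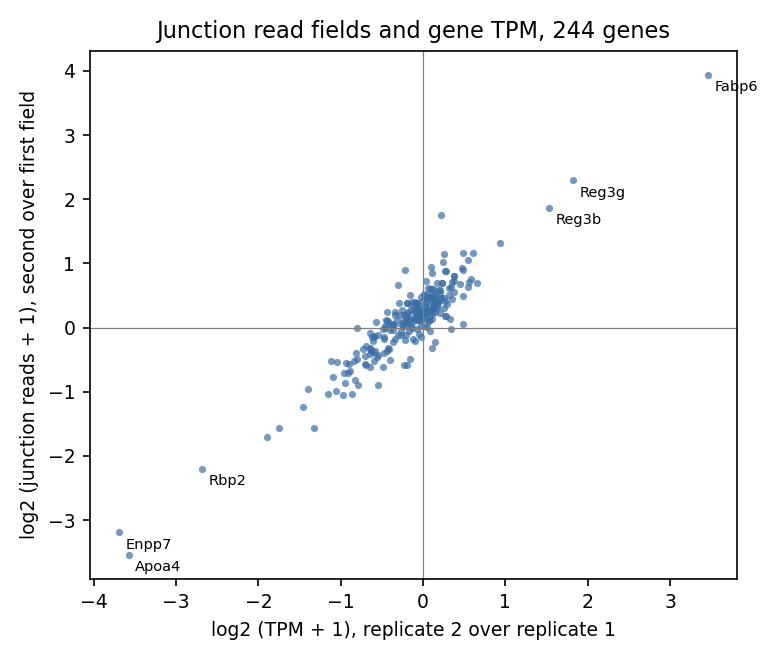
Log2 ratio of junction reads, second over first field with 1 read added (vertical axis), against the log2 ratio of TPM + 1, replicate 2 over replicate 1 (horizontal axis), for the 244 tied genes. The points run along a rising diagonal from Enpp7 and Apoa4 at the lower left to Fabp6 at the upper right.

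Of the 59 contigs that were spliced but not tied, 38 lay in 3 stretches, defined as runs of at least 5 such contigs with less than 1 Mb between neighbours. Genes could be placed beside each stretch by the nearest tied contigs, and the annotation gives which genes lie between these neighbours. Single contigs in the stretches were not assigned to genes. Genes without an annotated transcript of at least 3 exons could not be tied, and how many genes between these neighbours are of that kind was not tested. All 3 stretches fall between neighbours that enclose large gene families.

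The stretch on chromosome 8, positions 22165197 to 22846133, held 11 contigs with levels of 112 to 935. Its tied neighbours were 2610005L07Rik and Atp7b, and of the 88 annotated genes between them 35 are named Defa and 10 Defb. Defa genes encode the alpha-defensins, which Paneth cells secrete. Junctions at these contigs had 1045380 reads in the second field and 31759 in the first, so 97.05% of the reads were in the second field, and all 11 contigs had the second field at least 2-fold higher. The contig chr8:22302511-22303054 had 193846 junction reads in the second field and 0 in the first. At 6 of the 11 the junction reads exceeded the coverage expressed in read lengths, up to 64632.3 per 1000 at chr8:22619737-22620046, and the same was so at 34 of the 511 contigs in all, with 1575.1 per 1000 the highest value of a tied contig. A read that crosses a junction at the edge of a contig can lie mostly outside it, and junctions ending just outside a contig were counted too. Whether either accounts for an excess of this size was not tested. For comparison, the Paneth marker Defa24 had 9564.1 TPM in replicate 2 against 5011.8 TPM in replicate 1, and Mmp7, which activates alpha-defensins in mice, had 396.2 TPM in replicate 2 against 178.2 TPM in replicate 1.

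Chromosome 12 had a stretch at positions 114849391 to 117191074 with 13 contigs, all on the minus strand, at levels of 103 to 305. Its tied neighbours were Ighm and Vipr2, and of the 259 annotated genes between them 185 are named Ighv, the variable segments of the immunoglobulin heavy chain. The second field held 4110 junction reads and the first 11136, so 26.96% were in the second field. The contigs did not share 1 direction: chr12:115434646-115434958 had 1136 reads in the second field and 2 in the first, while chr12:115895559-115895879 had 124 in the second field and 4589 in the first.

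On chromosome 6 the stretch at positions 68000068 to 70677057 held 14 contigs with levels of 102 to 1550. Il12rb2 and Rpia were its tied neighbours, and 160 of the 228 annotated genes between them are named Igkv, the variable segments of the immunoglobulin kappa light chain. The second field held 75988 junction reads and the first 114122, so 39.97% were in the second field. The highest of these contigs, chr6:70672363-70677057, had 43450 reads in the second field and 63061 in the first. The kappa constant gene Igkc had 21084.8 TPM in replicate 2 against 35618.7 TPM in replicate 1, and the alpha constant gene Igha had 8967.4 TPM in replicate 2 against 17969.2 TPM in replicate 1. Variable segments are joined by rearrangement of the genome in each B cell. Why the contigs of these stretches had no tie was not tested.

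**Figure D5:**
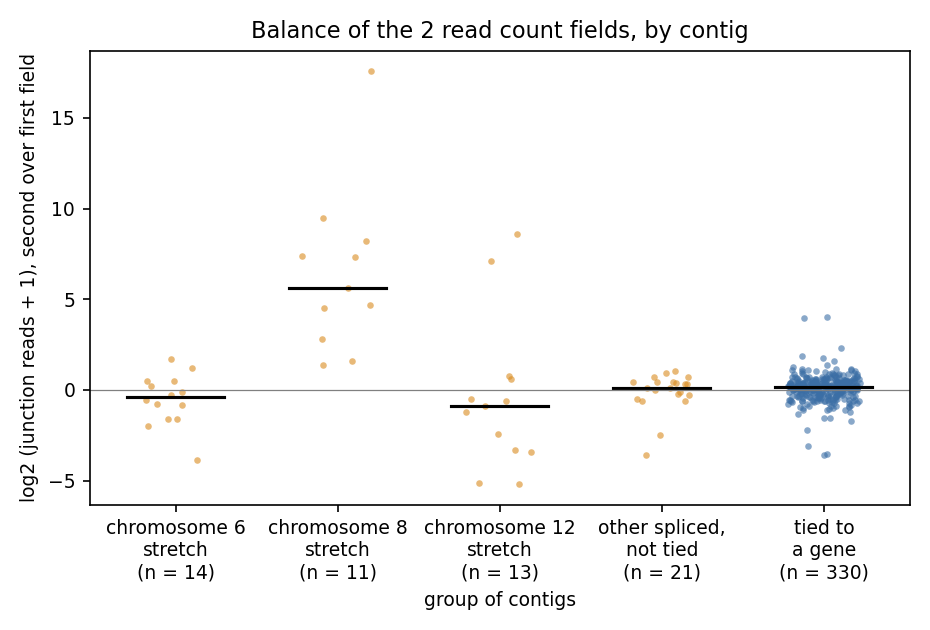
Log2 ratio of junction reads, second over first field with 1 read added (vertical axis), for each contig in the 3 stretches, the 21 other spliced contigs without a tie and the 330 tied contigs (horizontal axis); black lines are medians. The chromosome 8 stretch has a median of 5.63 with all points above 0, and the chromosome 12 stretch spreads from -5.20 to 8.57.

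A further pair of contigs held more junctions than any other members. The contigs chr5:137632669-137634069, with a level of 1550, and chr5:137625299-137627507, with a level of 1240, were touched by 615 and 620 junctions with 287405 and 251938 reads. Both matched more than 1 gene by their splice distances and were left untied. At both contigs the first field was the higher, with log2 ratios of -0.61 and -0.64.

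Contig level was also set beside gene level. The Spearman correlation of a gene's highest contig level with its mean FPKM was 0.61 over 244 genes. FPKM is a fragment count scaled to length and depth, and both measures come from the same reads. These genes were chosen by a contig level of at least 100 within the length limits, so the correlation covers a cut range. How closely level follows expression over all genes was not tested. The ratio of the level to the FPKM had a median of 0.4081. Its highest value was 5.43 for Cst6, an inhibitor of cysteine proteases, and its lowest was 0.04569 for Gapdh, the glycolytic enzyme. The Cst6 contig had a level of 119 over 395 nt with 1609 junction reads, while the gene had 21.02 FPKM in replicate 2 against 22.81 FPKM in replicate 1. Lars2, the mitochondrial leucyl-tRNA synthetase, had a contig of level 460 but 1.832 junction reads per 1000 read lengths, the lowest of the tied contigs, at 223.9 TPM in replicate 2 against 232.7 TPM in replicate 1. Other genes could lie on a contig tied to 1 gene, and this was not tested.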

How the data were processed

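The authors deposited the contig list and the junction list of the whole series on build mm9, and gene tables per library on build mm10 with GENCODE M4, per the file headers and accompanying notes. The aligner and the quantification program are named in no source used here. The contig level and the summed coverage are deposited signal values, and the level equals coverage divided by length and by 1 constant, 18.86. The reproducibility value is a deposited score. Junction reads are deposited counts, equal to the sum of both fields in each name. The gene tables hold the authors' expected counts, TPM and FPKM.

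A junction touched a contig when it had at least 10 reads and an end inside the contig or within 5 nt of it on the same strand. Splice distances were compared with GENCODE M21, with no conversion of coordinates between builds. Over all contigs 98466 were tied, 99.996% of them on the gene's own chromosome and strand. On simulated data the match tied 197 of 200 loci to the true gene and 0 of 200 loci whose distances had been changed. The simulated loci were transcripts of the same annotation with at least 3 exons and every junction at its exact position. Genes with fewer exons were not tried. In the changed loci every distance was altered, so a lack of ties was likely from the start. Ratios are log2((TPM + 1) of replicate 2 / (TPM + 1) of replicate 1) for genes whose mean TPM reached 1, with no p-value.

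The members, gene groups and limits were chosen with earlier results of these data known. Gene groups were sets of symbols and of symbol beginnings, so the genes of a group need not share 1 role. The rule for names took the first 20 contigs, the contigs at the edges of the rule, the loci with most contigs, the 30 highest tied genes, the gene groups and the largest ratios. Capns1, Dazap2, Myo1a, Cst6 and Gapdh were named after their values were seen, as were the stretches. For scaling alternatives, expected counts were rounded and scaled with TMM in edgeR 4.0.16 (R 4.3.3). Tables were made with pandas 2.3.3 and scipy 1.17.1 under Python 3.11.15, and figures with matplotlib 3.10.9. Transcript tables were not used here. Some results are not reported here.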

Additional observations from a re-analysis of the deposited data

How the results depend on the processing

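The number of contigs followed the level limit, with 1409 at a minimum of 50 and 192 at a minimum of 200, and was 669 without length limits. The share with a splice junction was 98.83% with junctions of at least 1 read, 77.1% with at least 100 reads, 88.08% at a level minimum of 50 and 75% at 200. Members took 21.93% of junction reads with junctions of at least 1 read and 14.7% at a level minimum of 200. An opposite strand contig overlapped at least 50% of the length of 0.5871% of members. Ties numbered 303 with 4 distances and 328 with junctions of at least 100 reads, and loci 464 within 1 kb and 394 within 100 kb. The share of tied genes 2-fold apart was 4.918% with FPKM and with TMM, in each case 4 higher in replicate 2 and 8 higher in replicate 1, where Clu joined the first and Apoa1, Mogat2, Tfg, Krt20 and Guca2b left the second. TMM and FPKM moved the median log2 ratio of all genes to 0.01 and 0.0, and that of tied genes to 0.08 and 0.09. The summed TPM of tied genes was 268831.8 without replicate 1 and 237272.9 without replicate 2. The plus strand share was 48.05% at a level minimum of 50 and 46.88% at 200, and the reproducibility share was 100% at both. These sets contain the members or lie within them, so close shares were likely from the start. No paired analysis was possible because the labels give 1 group. Depth limits weak contigs, not members, whose mean depth was at least 1885.7 up to rounding of the level.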
